A study of Homo sapiens with 6 samples.

Results

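The nuclear pore and Ran transport genes are 39 genes taken by symbol, by a rule that uses no measured value, out of the 58174 gene rows of the RNA-seq tables. They comprise 27 nucleoporins, the proteins that build the nuclear pore, and 12 genes of the Ran cycle and of the importins and exportins that carry cargo through it. The comparison asked how their transcript levels differed in T24 cells, an established human bladder cancer cell line, between 3 samples carrying a scrambled control shRNA (shRNA-NC) and 3 samples carrying an shRNA against UBC9 (shRNA-UBC9). The shRNA against UBC9 was delivered by lentivirus from the pLKO.1 vector (the vector of the control is not stated), and the cells were kept under puromycin until stable. Because a single shRNA sequence was used, effects of lowering UBC9 and effects particular to that sequence cannot be told apart. Nothing in the labels says that the 3 samples of a group came from separate cultures, so the p-values measure only the spread between these samples, which may be technical.

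UBC9 is the conjugating enzyme that attaches the small protein SUMO to its targets. The pore is a channel in the nuclear envelope: transmembrane nucleoporins anchor it, the Y complex and the inner ring form its scaffold, and filaments and a basket extend from its faces. Importins bind cargo in the cytoplasm and release it in the nucleus on meeting Ran loaded with GTP; RCC1 loads Ran on chromatin, and RANGAP1 in the cytoplasm triggers hydrolysis of the GTP. RANGAP1 is a major SUMO substrate, and in its modified form it is held at the cytoplasmic face of the pore with UBC9 by RANBP2, a nucleoporin that acts as a SUMO ligase.

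The levels are RPKM values, reads divided by the length of the gene and by the mapped reads of the library, and they were compared on the scale log2(RPKM + 0.1), which understates changes of low genes. The steps of the RPKM values gave totals of 28219032 to 36058872 mapped reads in a sample, and each of the 39 members rested on between 416 and 29735 reads in a sample. KRT7, KRT8, KRT18 and KRT19, keratins of simple epithelia, were present in every sample, and EPCAM, a surface protein of epithelial cells, was at 0.412 to 2.51 RPKM; the 5 together summed to 938.06 to 1107.8 RPKM in shRNA-NC and 425.83 to 563.46 in shRNA-UBC9. Of 9 markers of other cell types, CD68, a lysosomal protein abundant in macrophages, was at 1.53 to 3.24 RPKM in shRNA-NC and 18.6 to 48.4 in shRNA-UBC9, and CDH5, the endothelial cadherin, at 2.58 to 3.15 and 0.241 to 1.02. The remaining 7 summed to at most 0.513 RPKM in any sample, and the part of these markers in the results below was not tested.

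More members were lower in shRNA-UBC9 than higher, by modest amounts. All 39 passed the filter on low values (0.5 RPKM or more in 3 or more of the 6 samples), as did 12428 genes in all. With an adjusted p below 0.05, 12 members (30.8%) fell, where 18.0% of all tested genes fell, and 1 member (2.56%), KPNA4, rose, where 18.8% of all tested genes rose. The log2 fold change was below 0 for 33 members (84.6%) against 49.4% of all tested genes, and its median was -0.24 for the members against 0.0048 for all tested genes. In 24 members every shRNA-UBC9 sample lay below every shRNA-NC sample, which held for 25.4% of all tested genes, and in 2 members, KPNA4 and RANBP2, every shRNA-UBC9 sample lay above, which held for 25.7%. Fewer cells expressing a gene and less RNA per cell cannot be told apart in such bulk samples.

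The changes were small for each gene. By limma, 0 of the 39 members changed by more than 2-fold, where 7.89% of all tested genes did (5.20% rose and 2.70% fell), and since no log2 fold change was beyond 1 this held at any p; the count was also 0 on the recovered reads. The log2 fold changes ran from -0.78 for NUP210 to 0.35 for KPNA4. For 37 members (94.9%) the 95% confidence interval of the log2 fold change lay wholly within 2-fold of no change, including all 26 that did not pass the threshold. This also held for 81.9% of all tested genes and for 97.6% of the other nuclear transport genes described below. The RPKM of the 39 members summed to 1152.8 ± 61.4 (SD, n = 3) in shRNA-NC and 974.9 ± 86.4 in shRNA-UBC9, that is 0.499% and 0.414% of all RPKM.

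**Figure D1:**
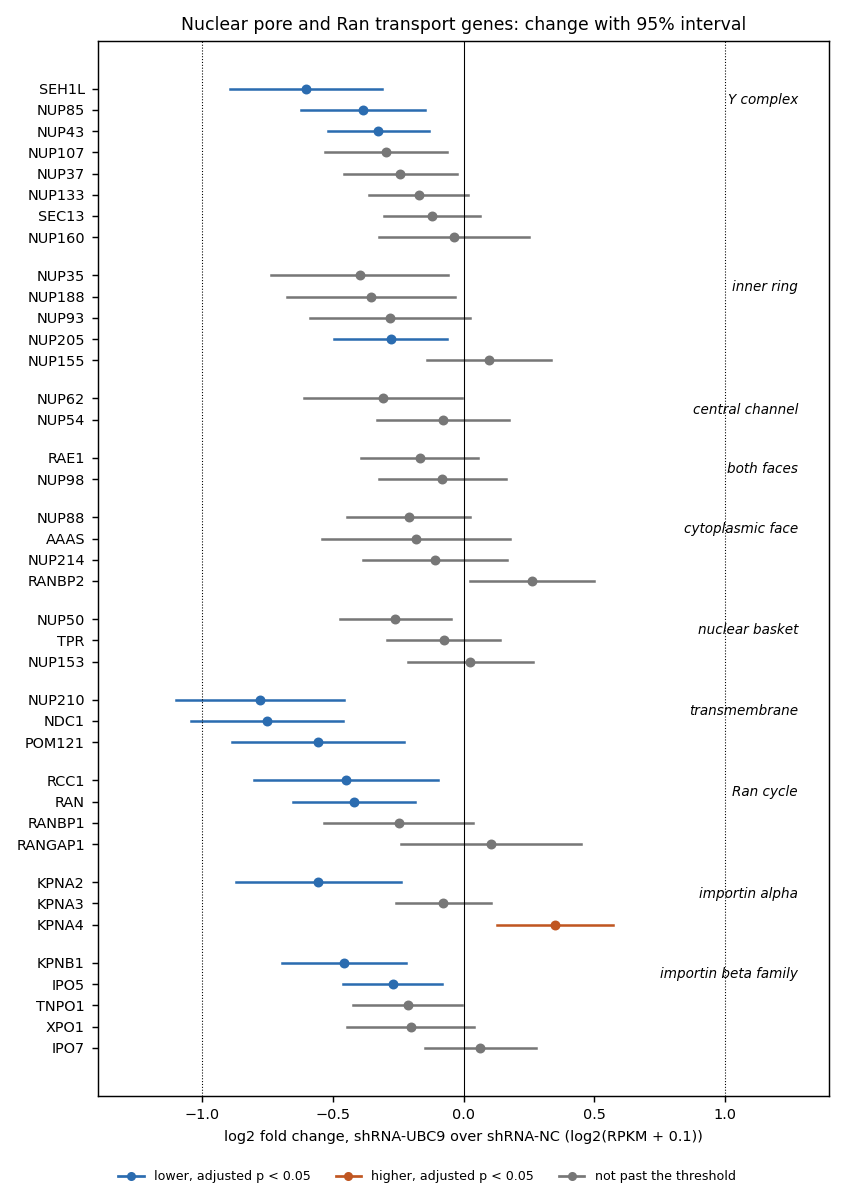
Log2 fold change of each of the 39 members (points, x axis, shRNA-UBC9 over shRNA-NC on the log2(RPKM + 0.1) scale) with its 95% confidence interval (bars), grouped by place in the pore or role in transport. The 12 members that fell are blue, KPNA4, which rose, is orange, and the 26 others are grey; dotted lines mark 2-fold.

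The count of members that fell depended on single libraries. Without shRNA-NC replicates 1, 2 and 3 it was 6, 7 and 7 of the 39, where 13.9%, 14.5% and 11.3% of all tested genes fell. Without shRNA-UBC9 replicates 1, 2 and 3 it was 9, 7 and 14, where 16.1%, 12.7% and 16% fell. Without shRNA-NC replicate 1 the members' share was thus close to that of all tested genes. The members also shared an order among the replicates. In shRNA-UBC9, replicate 1 was the lowest sample in 31 of the 39 members (79.5%, against 41.7% of all tested genes), and in shRNA-NC, replicate 2 was the highest in 31 (79.5% against 41.2%). Without shRNA-UBC9 replicate 1 the median log2 fold change of the members was -0.19, and without shRNA-NC replicate 2 it was -0.17.

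The transmembrane nucleoporins, which anchor the pore in the envelope, held the 2 members with the largest decreases. All 3 fell, where 18.0% of all tested genes fell. NUP210 (chr3:13316235-13420322, minus strand, coordinates of this and later genes from GENCODE 44 on GRCh38), a glycoprotein with most of its mass in the lumen of the envelope, measured 3.48, 3.99 and 3.10 RPKM in the 3 shRNA-NC samples and 1.73, 2.04 and 2.28 in the 3 shRNA-UBC9 samples. It was the lowest of the 39 members in level, and its groups were clearly apart, with a log2 fold change of -0.78 (SE 0.14, limma adjusted p = 0.00378). NDC1 (chr1:53765478-53838463, minus strand), which is needed to insert pores into the envelope, measured 26.1, 30.7 and 25.1 RPKM in shRNA-NC and 13.8, 16.3 and 18.4 in shRNA-UBC9, with a log2 fold change of -0.75 (SE 0.13, limma adjusted p = 0.00288). NUP210 and NDC1 passed the threshold in all 16 alternative analyses.

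POM121 (chr7:72879349-72951440, plus strand), the remaining anchor, measured 10.4, 8.54 and 8.62 RPKM in shRNA-NC and 5.14, 6.25 and 7.38 in shRNA-UBC9. The groups did not overlap, with a log2 fold change of -0.56 (SE 0.14, limma adjusted p = 0.0179). Without shRNA-NC replicate 1, its highest sample, the log2 fold change was -0.46 and the limma adjusted p 0.0642, the highest over the 16 alternatives, which began at 0.0066. POM121 has a near-identical copy, POM121C, listed at 98.6% of its level in shRNA-NC, and a shorter one, POM121B, at 13.1%, and how the authors' mapping divided reads between them is not stated. Summed over POM121 and its copies, the level was 19.5 ± 2.32 RPKM (SD, n = 3) in shRNA-NC and 12.3 ± 1.96 in shRNA-UBC9, so the sum was lower as well.

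**Figure D2:**
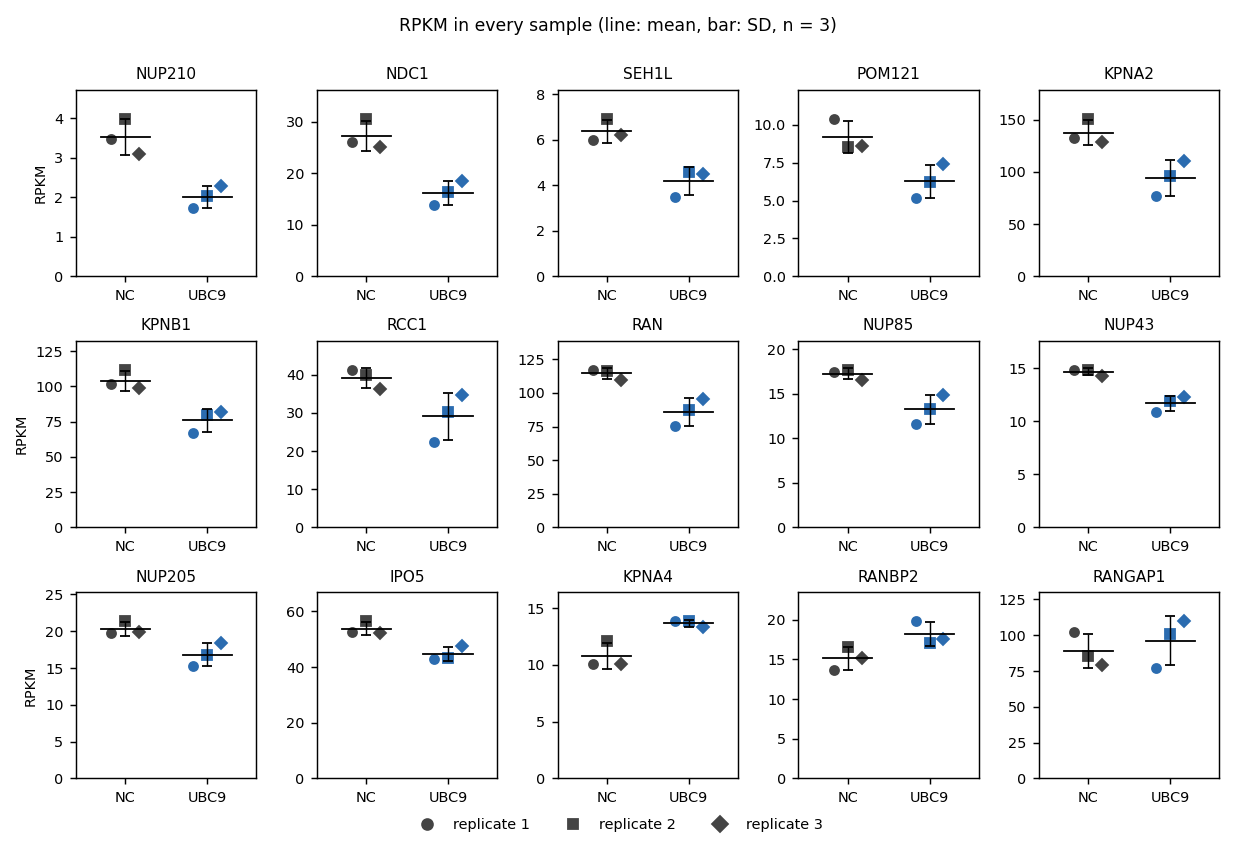
RPKM (y axes, each from 0) of the 13 members that passed the threshold, RANBP2 and RANGAP1 in every sample, with the group mean (line) and SD (bar, n = 3); grey is shRNA-NC, blue is shRNA-UBC9, and the symbol gives the replicate. The groups do not overlap except for RANGAP1, and in the members that fell, shRNA-UBC9 replicate 1 (circle) is the lowest sample.

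The Y complex, the scaffold of the outer rings, had 3 of its 8 members lower (37.5%, against 18.0% of all tested genes). The 5 others also had log2 fold changes below 0. SEH1L (chr18:12947133-12987536, plus strand), which also belongs to the GATOR2 complex that acts on mTORC1 control, measured 5.97, 6.93 and 6.20 RPKM in shRNA-NC and 3.46, 4.601 and 4.48 in shRNA-UBC9. Its log2 fold change was -0.60 (SE 0.13, limma adjusted p = 0.00766), and it passed the threshold in all 16 alternatives. NUP85 measured 17.5, 17.7 and 16.6 RPKM in shRNA-NC and 11.7, 13.3 and 14.8 in shRNA-UBC9, with a log2 fold change of -0.39 (SE 0.10, limma adjusted p = 0.0208). NUP43 was the tightest of the 3 within its groups, at 14.9, 14.9 and 14.3 RPKM in shRNA-NC and 10.9, 11.9 and 12.3 in shRNA-UBC9, with a log2 fold change of -0.33 (SE 0.08, limma adjusted p = 0.0178).

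NUP85 and NUP43 sat closer to the threshold than SEH1L. Without shRNA-NC replicate 1, shRNA-NC replicate 3 or shRNA-UBC9 replicate 2, the limma adjusted p lay between 0.0522 and 0.0605 for NUP85 and between 0.0504 and 0.0538 for NUP43, and for NUP85 it was 0.057 without shRNA-NC replicate 2. Over the 16 alternatives it ranged from 0.0126 to 0.0605 for NUP85 and from 0.00913 to 0.0588 for NUP43. The 5 Y complex members that did not pass, NUP107, NUP133, NUP160, NUP37 and SEC13, had log2 fold changes between -0.30 and -0.04. SEC13, which also coats vesicles leaving the endoplasmic reticulum, was the highest of them, at 20.2, 20.7 and 19.3 RPKM in shRNA-NC and 17.8, 18.3 and 19.3 in shRNA-UBC9, with a 95% interval of the log2 fold change from -0.30 to 0.06.

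Of the 5 inner ring members, which line the membrane inside the scaffold, 1 fell, NUP205 (20%, close to the 18.0% of all tested genes). It measured 19.8, 21.4 and 19.8 RPKM in shRNA-NC and 15.2, 16.8 and 18.3 in shRNA-UBC9, with a log2 fold change of -0.28 (SE 0.09, limma adjusted p = 0.0485). This call was fragile: the adjusted p passed 0.05 without any 1 of the samples except shRNA-UBC9 replicate 3, reached 0.124 without shRNA-NC replicate 2, and ranged from 0.0262 to 0.124 over the 16 alternatives. In the same leave-one-out fits its log2 fold change stayed between -0.34 and -0.21. The 4 others, NUP35, NUP93, NUP155 and NUP188, ran from -0.40 to 0.10. NUP188, a large paralog of NUP205 and the highest of the 4, measured 30.6, 32.1 and 25.4 RPKM in shRNA-NC and 19.4, 22.9 and 26.9 in shRNA-UBC9, and its groups overlapped (log2 fold change -0.35, 95% interval -0.67 to -0.03, limma adjusted p = 0.0799).

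None of the 11 members of the central channel, of both faces, of the cytoplasmic face or of the nuclear basket passed the threshold by limma. Of all tested genes, 18.0% fell and 18.8% rose. On the recovered reads none of the 11 passed either. At an unadjusted p below 0.05 there were 3 of the 11, NUP62 and NUP50 with lower levels and RANBP2 with higher. At that looser threshold the shares of all tested genes are at least the 18.0% and 18.8% above, so the 3 are not read as an excess. NUP62, whose FG repeats fill the central channel, measured 17.5, 19.5 and 15.4 RPKM in shRNA-NC and 12.1, 13.9 and 16.3 in shRNA-UBC9, with overlapping groups and a log2 fold change of -0.31 (95% interval -0.61 to -0.01). NUP54, its partner in the channel, had a log2 fold change of -0.08. NUP98, a mobile FG nucleoporin found on both faces, measured 25.9, 24.4 and 24.6 RPKM in shRNA-NC and 20.3, 25.4 and 25.6 in shRNA-UBC9, and only shRNA-UBC9 replicate 1 lay below the control samples. RAE1, which binds NUP98, had a log2 fold change of -0.17.

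On the cytoplasmic face, RANBP2 (chr2:108719482-108785810, plus strand) measured 13.7, 16.6 and 15.2 RPKM in shRNA-NC and 19.9, 17.01 and 17.6 in shRNA-UBC9. Every shRNA-UBC9 sample was above every control sample, with shRNA-NC replicate 2 and shRNA-UBC9 replicate 2 close together. The log2 fold change was 0.26 (95% interval 0.02 to 0.50), and the limma adjusted p of 0.0808 missed the threshold. RANBP2 shares most of its sequence with the RGPD genes, of which RGPD5 was listed at 20.8% and RGPD8 at 18.7% of its level in shRNA-NC. With these copies summed the level was 21.4 ± 2.42 RPKM (SD, n = 3) in shRNA-NC and 27.6 ± 3.19 in shRNA-UBC9, with a log2 fold change of 0.36 with a limma adjusted p of 0.0403, while the adjusted p ranged up to 0.225 over the other alternatives. The remaining 3, NUP88, NUP214 and AAAS, had log2 fold changes between -0.21 and -0.11.

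In the nuclear basket, TPR, which forms the basket filaments, measured 24.5, 28.7 and 27.7 RPKM in shRNA-NC and 27.5, 24.7 and 24.5 in shRNA-UBC9. Its groups overlapped fully, and the 95% interval of the log2 fold change was -0.29 to 0.14. NUP153, which tethers TPR, had a log2 fold change of 0.03, and NUP50, which helps to release importin alpha from its cargo, one of -0.26 with groups that did not overlap. Over all 27 nucleoporins, 7 fell (25.9%, against 18.0% of all tested genes), the other 20 did not pass the threshold, and the summed level was 409.5 ± 21.8 RPKM (SD, n = 3) in shRNA-NC and 353.1 ± 25.2 in shRNA-UBC9.

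In the Ran cycle, the GTPase and its nuclear loading factor fell, 2 of 4 members (50%, against 18.0% of all tested genes). The values for the cytoplasmic activator overlapped between the groups. RAN (chr12:130872037-130877678, plus strand) measured 117.4, 116.7 and 109.5 RPKM in shRNA-NC and 75.1, 87.5 and 95.4 in shRNA-UBC9. It was the second highest member in level in shRNA-NC, and its log2 fold change was -0.42 (SE 0.10, limma adjusted p = 0.0142), past the threshold in all 16 alternatives. RCC1 (chr1:28505943-28539300, plus strand) measured 41.4, 40.0 and 36.2 RPKM in shRNA-NC and 22.4, 30.2 and 34.7 in shRNA-UBC9, with a log2 fold change of -0.45 (SE 0.15, limma adjusted p = 0.0497). The low value of shRNA-UBC9 replicate 1 set much of that difference: without it the log2 fold change was -0.27 and the adjusted p 0.0728. RCC1 also missed the threshold without shRNA-NC replicates 1, 2 or 3 (adjusted p = 0.138, 0.114 and 0.0816) or shRNA-UBC9 replicate 2 (adjusted p = 0.0816), in limma fits whose adjusted p ran from 0.0161 to 0.138 over the 16 alternatives.

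RANGAP1 (chr22:41244779-41286187, minus strand) measured 102.2, 85.6 and 79.0 RPKM in shRNA-NC and 77.0, 101.2 and 110.1 in shRNA-UBC9. Each group held both high and low samples, and the log2 fold change of 0.10 had a 95% interval from -0.24 to 0.45 (limma adjusted p = 0.617). Without shRNA-UBC9 replicate 3 it was -0.0024. The interval leaves room for a change of either sign, and these values count transcripts and do not measure the SUMO-modified protein. RANBP1, which helps RANGAP1 to act on Ran, had a log2 fold change of -0.25 (limma adjusted p = 0.154). The ratio of RAN to RANGAP1 RPKM was 1.15, 1.36 and 1.39 in shRNA-NC and 0.976, 0.865 and 0.866 in shRNA-UBC9. By RPKM, RAN was thus the higher of the pair in every control sample and the lower in every shRNA-UBC9 sample. Which of the pair is higher depends on the length assigned to each gene. This ratio was chosen after the values were seen and was not tested.

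Of the 3 importin alpha adaptors, which recognise the nuclear localisation signal of a cargo, KPNA2 fell, KPNA4 rose and KPNA3 did not pass. Among all tested genes, 18.0% fell and 18.8% rose. KPNA2 (chr17:68035636-68047364, plus strand), the highest of the 39 members by RPKM in shRNA-NC, measured 132.9, 151.3 and 128.9 RPKM in shRNA-NC and 76.7, 95.8 and 111.0 in shRNA-UBC9, with a log2 fold change of -0.56 (SE 0.14, limma adjusted p = 0.0153). KPNA4 (chr3:160495007-160565571, minus strand), an adaptor for NF-kappaB among other cargoes, though not the only one, measured 10.1, 12.1 and 10.1 RPKM in shRNA-NC and 13.9, 13.8 and 13.3 in shRNA-UBC9, with a log2 fold change of 0.35 (SE 0.10, limma adjusted p = 0.0232). KPNA3, its close paralog, measured 20.1, 21.0 and 19.9 RPKM in shRNA-NC and 18.3, 19.6 and 19.8 in shRNA-UBC9, and its 95% interval was -0.26 to 0.10.

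Both calls could be lost by leaving out a library. KPNA2 had a limma adjusted p of 0.0504 without shRNA-NC replicate 2, the highest over the 16 alternatives, which began at 0.0059. KPNA4 had limma adjusted p-values of 0.0741 without shRNA-NC replicate 1, 0.0943 without shRNA-NC replicate 3 and 0.0712 without shRNA-UBC9 replicate 2, and ranged from 0.0107 to 0.0943 over the alternatives. Its log2 fold change was between 0.31 and 0.44 in all of them. As KPNA2 supplied most of the importin alpha RPKM, the summed RPKM of KPNA1 to KPNA7 was 197.4 ± 14.9 (SD, n = 3) in shRNA-NC and 154.9 ± 17.9 in shRNA-UBC9. The share of KPNA2 in that sum was 69.7 ± 0.81% in shRNA-NC and 60.7 ± 4.13% in shRNA-UBC9, and the share of KPNA4 was 5.44 ± 0.18% and 8.94 ± 1.23%. The ratio of KPNA2 to KPNA4 was 13.2, 12.5 and 12.7 in the control samples and 5.52, 6.93 and 8.32 in the shRNA-UBC9 samples. It pairs the adaptor that fell with the one that rose, so its separation between the groups follows from that choice. No test was made of these ratios, for which the smallest exact permutation p of 3 samples against 3 is 0.1.

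**Figure D3:**
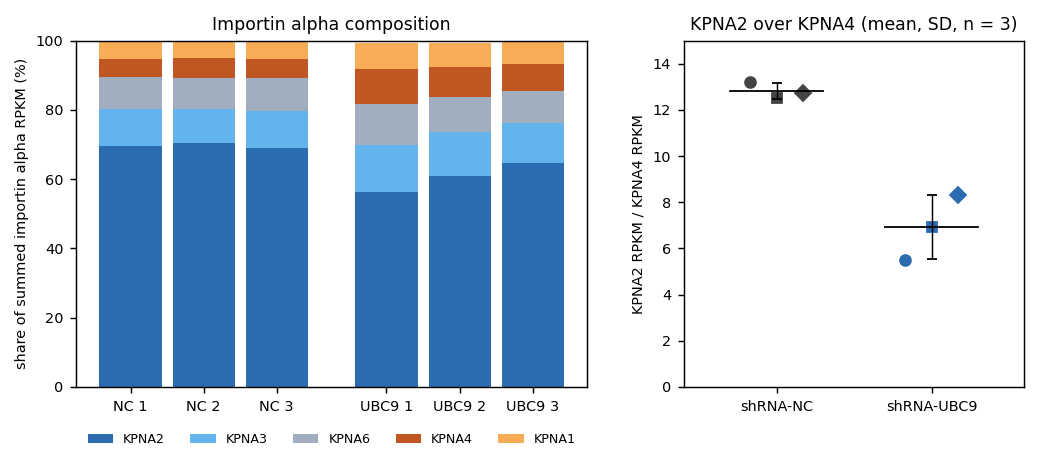
Left, share of each importin alpha gene in the summed importin alpha RPKM (y axis, percent) in every sample, with the small remainder of KPNA5 and KPNA7 left blank at the top. Right, ratio of KPNA2 to KPNA4 RPKM in every sample with mean (line) and SD (bar, n = 3): 12.5 to 13.2 in shRNA-NC and 5.52 to 8.32 in shRNA-UBC9.

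Among the carriers of the importin beta family, KPNB1 and IPO5 fell (40%, against 18.0% of all tested genes) and 3 others did not pass. KPNB1 (chr17:47649476-47685505, plus strand) is importin beta itself, the partner of importin alpha. It measured 101.6, 111.8 and 98.5 RPKM in shRNA-NC and 66.5, 79.4 and 82.0 in shRNA-UBC9, with a log2 fold change of -0.46 (SE 0.10, limma adjusted p = 0.0105) that held in all 16 alternatives. IPO5, which imports ribosomal proteins and histones, measured 52.6, 56.7 and 52.4 RPKM in shRNA-NC and 42.9, 43.4 and 47.5 in shRNA-UBC9. The log2 fold change of -0.27 was the smallest among the members that passed (limma adjusted p = 0.0331), and the adjusted p was between 0.0638 and 0.11 without any 1 sample other than shRNA-UBC9 replicate 3, and between 0.0191 and 0.11 over the 16 alternatives. TNPO1, IPO7 and XPO1, the last being the main exportin for proteins, had log2 fold changes between -0.21 and 0.06. IPO7 was the highest of these, at 67.1, 77.5 and 72.4 RPKM in shRNA-NC and 81.7, 74.0 and 71.2 in shRNA-UBC9, with a 95% interval from -0.15 to 0.28.

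RPKM divides by the length assigned to a gene, recovered as 4825 bases for RAN and 10481 for SEH1L. That length may differ from the length of the transcripts present. Ranks between members therefore hold only per kilobase of the assigned lengths. In shRNA-NC, 6 members had a mean above 50 RPKM (KPNA2, RAN, KPNB1, RANGAP1, IPO7 and IPO5), all of them transport factors rather than nucleoporins, and 5 were below 10 RPKM (POM121, NUP214, SEH1L, NUP35 and NUP210), all nucleoporins. Of the 6 members above 50 RPKM 4 fell, and of the 5 below 10 RPKM 3 fell, where 18.0% of all tested genes fell. In shRNA-UBC9 the order at the top changed, with RANGAP1 at 96.1 ± 17.2 RPKM and KPNA2 at 94.5 ± 17.2 (SD, n = 3) not apart beyond their spread, where in shRNA-NC they were at 88.9 ± 11.98 and 137.7 ± 11.9.

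Other genes of nuclear transport also held more that fell than rose. Of 42 tested, which include further nucleoporins, Ran regulators, karyopherins and the messenger RNA export machinery, 12 fell (28.6%, against 18.0% of all tested genes) and 3 rose (7.14% against 18.8%). Their median log2 fold change was -0.13, and 59.5% of them had a log2 fold change below 0, against 84.6% of the 39 members. The largest changes among those that passed were in POM121C (-0.73), the copy of POM121 named above, in GLE1 (-0.68), an activator of the RNA helicase at the cytoplasmic face, and in NUP58 (0.52), a partner of NUP62 and NUP54 in the central channel. GLE1 measured 24.3, 29.3 and 24.5 RPKM in shRNA-NC and 16.3, 15.8 and 16.1 in shRNA-UBC9, with groups well apart. NUP58 went the other way, at 6.53, 7.09 and 7.13 RPKM in shRNA-NC and 9.36, 10.3 and 10.2 in shRNA-UBC9. Without shRNA-NC replicates 1, 2 and 3, the count of these 42 genes that fell was 8, 6 and 4, where 13.9%, 14.5% and 11.3% of all tested genes fell. Without shRNA-UBC9 replicates 1, 2 and 3 it was 8, 6 and 9, where 16.1%, 12.7% and 16% fell. Without shRNA-NC replicate 2 or 3 the share that fell was thus not above that of all tested genes. In the SUMO pathway, SAE1 and UBA2, the subunits of the SUMO-activating enzyme, fell, with log2 fold changes of -0.50 and -0.32, and SUMO2, a SUMO protein itself, rose, with a log2 fold change of 0.28.

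Of 10 genes of the lamina and inner envelope, 4 fell (40.0%, against 18.0% of all tested genes), 1 rose (10% against 18.8%) and 5 did not pass (median log2 fold change -0.28), with the largest changes in TMPO (-0.88), LMNB1 (-0.67) and LMNB2 (-0.55), which encode lamina-associated polypeptides and B-type lamins. Of 25 mitosis genes, 24 fell (96.0%, median -0.60), led by KIF20A (-1.30), NUSAP1 (-1.24) and TOP2A (-1.06). Of 29 DNA replication genes, 15 fell (51.7%, median -0.50), led by TYMS (-1.004), GINS4 (-0.91) and MCM6 (-0.90). The mitosis genes summed to 1383.4 to 1568.1 RPKM in shRNA-NC and 784.62 to 1032 in shRNA-UBC9, and the replication genes to 921.5 to 1054.6 and 549.87 to 778.55, with the lowest sums in shRNA-UBC9 replicate 1, the library in which most members were lowest. The members' median of -0.24 lay between that of all tested genes and those of these division lists. The part of cell division in the members' decrease was not tested.

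**Figure D4:**
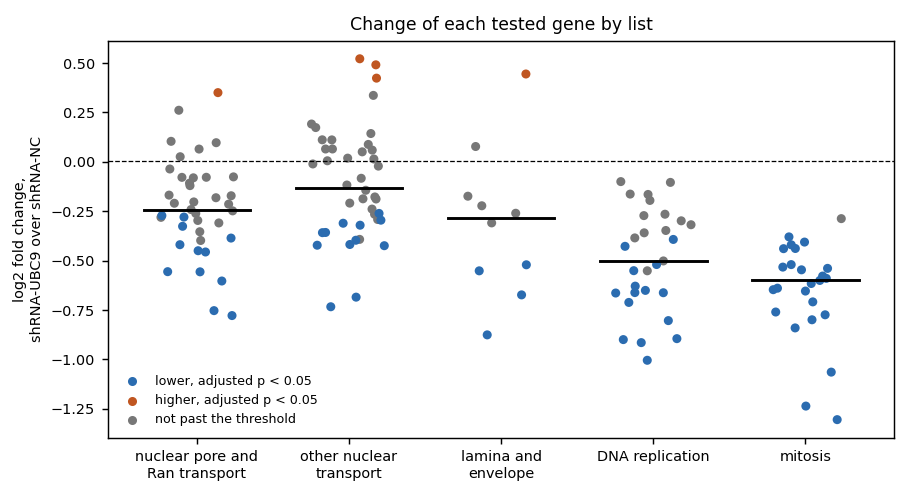
Log2 fold change (y axis, shRNA-UBC9 over shRNA-NC) of each tested gene (points) in the 39 members and in 4 other lists, with the list's median (bar); horizontal scatter within a list carries no meaning. The medians are -0.24 for the members, -0.13 for other nuclear transport genes, -0.28 for lamina and envelope, -0.50 for DNA replication and -0.60 for mitosis.

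Promoters were read for elements of cell cycle genes, as mitosis genes are known for CCAAT boxes and for the cell cycle homology region (CHR), an element with the letters TTTGAA bound by the DREAM and MuvB complexes. RefSeq promoters on GRCh38.p14, from 250 bases before to 50 after a start, were matched for 35 of the 39 members, and each motif was searched on both strands and counted whether or not it overlapped another. TTTGAA was found in 12 of the 35 (34.3%), against 18.2% of 27305 genes. CCAAT was found in 14 (40.0%), against 39.7% of all. The letters of E2F sites, written TTCCCGC in the form most often cited, TTGGCGC in a second form and TTCGCGC in another, were found in 15 (42.9%), against 13.1%. The 27305 genes include many that did not pass the filter on low values, which all members passed. They are thus not a matched set, and a higher share in the members need not be particular to them. In the mitosis list, CCAAT was present in 90.0%, TTTGAA in 65.0% and the E2F letters in 20% of the 20 genes matched. Among the 10 members that fell and had a promoter, each motif was found in 4 (40.0%). That is near the shares of all 35 members, 34.3% for TTTGAA, 40.0% for CCAAT and 42.9% for the E2F letters. The 4 with TTTGAA are shown as windows of 30 bases around a match, 5′ to 3′ on the strand of the gene, with TTTGAA or its reverse complement TTCAAA and any CCAAT in capitals.
KPNA2, chr17:68035624-68035653, plus strand: cccaacgtgtttTTCAAAtccaCCAATggg
NDC1, chr1:53838310-53838339, minus strand: ggccttcctgccTTTGAActgcggtggcgg
NUP205, chr7:135557740-135557769, plus strand: gccctcgccttaTTTGAAtgggaataatcc
RAN, chr12:130872051-130872080, plus strand: gcgtctccggcgTTTGAAttgcgcttccgc
Counted from the RefSeq start, the match began at base -99 in KPNA2, -31 in NDC1, -165 in NUP205 and -3 in RAN, and only the KPNA2 window also held CCAAT. A match is a description of letters and shows no bound factor.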

How the data were processed

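RNA-seq of polyA RNA from T24 cells was analysed for 3 shRNA-NC and 3 shRNA-UBC9 samples, grouped by their labels. The authors trimmed reads and aligned them to GRCh38 (hg38 in the submitters' processing notes) by default settings of the CLC Biomedical Genomics Workbench, and RPKM for 58174 genes were deposited. The annotation release, the use of strand and what those defaults do with reads of several matches are not given in the sources used here. Of the 13 members that passed, 6 have exons that overlap another gene in GENCODE 44, RCC1 with SNHG3 on its own strand and the others on the opposite strand, so some of their reads may belong to those genes.

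Genes at or above 0.5 RPKM in 3 or more of 6 samples (12428) were compared on log2(RPKM + 0.1) with limma 3.58.1 in R 4.3.3 (lmFit, eBayes with an intensity trend) and Benjamini-Hochberg adjustment over all of them. Confidence intervals are limma's, unadjusted, at 95%. A gene was called with an adjusted p below 0.05. Totals of mapped reads were recovered from the RPKM steps with GENCODE 44 lengths. The reads of each gene were then recovered with the smallest length that gave whole reads in all 6 samples. All 12428 tested genes came out whole within 0.001 of a read, and a gene whose 6 counts share a factor is understated. The length so found equalled the merged exon length of GENCODE 44 in 2010 of the tested genes.

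The members and gene lists were chosen with earlier results of these data known. Every member that passed is named with its values, and RANGAP1, RANBP2 and RAN whatever their result; of the other members, the highest in each subgroup, and of other lists the 3 called genes with the largest change. Alternatives were 2 other pseudocounts, 2 other filters, quantile normalization, median scaling, no trend, a replicate block, summed near-identical copies, each sample left out, and, chosen after seeing the data, limma-voom on the recovered reads. Some items of the gene lists are not reported here. The scripts were tested on simulated data. Python 3.11.15, pandas 2.3.3, numpy 2.4.6 and matplotlib 3.10.9 were also used.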

Additional observations from a re-analysis of the deposited data

How the results depend on the processing

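Of the 13 members that passed, 5 (SEH1L, NUP210, NDC1, RAN and KPNB1) passed in all 16 alternatives and 8 were lost in at least 1; 8 further members passed in at least 1. The number of members lower in shRNA-UBC9 was 12 in the main analysis, 9 to 17 with other pseudocounts, filters, scalings, summed copies, no trend or recovered reads, and 6 to 14 with a sample left out. In the same order, 18.0%, 8.07% to 21.5% and 11.3% to 16.1% of all tested genes were lower. The number of members higher was 1, and 2 with near-identical copies summed, where RANBP2 joined KPNA4, and 0 to 1 with a sample left out. In the same order, 18.8%, 18.8% and 13.1% to 17.5% of all tested genes were higher. Of the 42 other nuclear transport genes tested, 12 were lower, and 4 to 9 with a sample left out. Members past 2-fold were 0 in every alternative, where 4.44% to 8.57% of all tested genes were past it with an adjusted p below 0.05. Quantile normalization and median scaling, which gave 17 members lower, moved the median of all tested genes from 0.0048 to -0.043 and -0.0374. RANGAP1 changed sign without shRNA-UBC9 replicate 3, at -0.0024, the lowest of its values with a sample left out, which reached 0.26. The causes of these differences were not tested, and the fits that left a sample out also had fewer samples.

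With the replicate number as a block, 7 members were lower and 0 higher, and 5 of the other nuclear transport genes were lower. Of all tested genes, 13.1% were lower and 14.1% higher with the block. NUP85, NUP43, NUP205, RCC1, IPO5 and KPNA4 were lost. The labels do not say whether same-numbered samples belong together. The deviations of same-numbered samples correlated at -0.367, 0.073 and -0.17 for numbers 1, 2 and 3, and not every sample correlated best with its own number. Deviations taken within groups of 3 are tied to each other, so these correlations cannot settle whether the numbers pair the samples. The calls lost under the block depend on that choice. The fewest reads of a member in a sample were 416; counting error and the spread between samples were not separated.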

Other observations

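By place in the pore, all 3 transmembrane nucleoporins and 3 of the 8 Y complex members fell, against 1 of 5 inner ring members, and none of the 11 members of the central channel and the pore's faces passed. Of all tested genes, 18.0% fell and 18.8% rose. The inner ring's share was 20%, close to that of all tested genes. Whether these groups differ was not tested. Outside the members, the largest rises among the other nuclear transport genes were NUP58 (log2 fold change 0.52, limma adjusted p = 0.00278), NUPL2 (0.49, 0.0306) and IPO13 (0.42, 0.00516), the last a carrier of the importin beta family that both imports and exports cargo. NUPL2 and IPO13 are named after their values were seen. NUPL2 measured 2.90, 3.92 and 3.51 RPKM in shRNA-NC and 4.95, 5.56 and 4.14 in shRNA-UBC9, and IPO13 measured 6.74, 6.52 and 6.401 and 8.83, 9.18 and 8.47. In the lamina and envelope list LEMD3, an inner membrane protein that binds SMAD proteins, rose, from 4.28, 4.45 and 4.82 RPKM in shRNA-NC to 6.18, 6.01 and 6.35 in shRNA-UBC9.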
